A study of Homo sapiens with 4 samples.

Results

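Genes of mitosis, the kinetochore and cytokinesis were examined in cardiomyocyte cultures obtained by 2 routes from human embryonic stem cells. The set holds 60 genes of 23615 gene symbols in the deposited table, chosen by symbol for their known part in cell division. Earlier results of these data were known at that choice, so counts set against all genes are a description. All 60 were found, and each was assigned to 1 of 11 roles. RNA-seq was performed on poly-A RNA of unsorted day 14 cultures, in 2 biological replicates per group. Both groups came from RUES2, an established human embryonic stem cell line, and were induced with activin A at 100 ng/ml and BMP4 at 5 ng/ml (A100/B5), in a protocol that also includes the Wnt activator CHIR-99021. In the first group (ECsXAV), the cells were taken through hemogenic endothelial cells (ECs) with VEGF, bFGF and BMP4, and XAV, a tankyrase inhibitor that blocks Wnt/β-catenin signaling, was added from day 5 at 2 µM. In the second group (CPC), the cells were taken through cardiac progenitor cells (CPCs), and the protocol adds XAV at 1 µM on day 3 in some experiments without saying whether the sequenced cultures were among them. As these 4 cultures came from 1 line and were not sorted, each library mixes cardiomyocytes with any other cells that arose.

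At mitosis the duplicated chromosomes are condensed, attached through their kinetochores to spindle microtubules, checked for attachment, separated and parceled into daughter cells by cytokinesis. Most of the genes needed for this are switched on late in the cell cycle, in G2 and M phase. In resting cells they are held silent by the DREAM complex, which includes the MuvB proteins and acts at short promoter sequences. Human cardiomyocytes divide in the embryo and largely leave the cycle as they mature, so these transcripts are commonly used to gauge how many cells of a culture are dividing.

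One such promoter sequence is the cell cycle genes homology region (CHR), with the letters TTTGAA, and it is often preceded by CCAAT boxes, which bind NF-Y. RefSeq promoter windows (GRCh38.p14, from 250 bases before to 50 bases after a start site) were matched by symbol for 51 of the 60 genes, 64 windows in all, and AURKA, BIRC5, BUB3, CENPM, FOXM1, RACGAP1, TPX2, TTK and UBE2C had no window here. The promoters of 4 genes are shown because their genes were among those that differed most between the groups and hold a CHR match before the start site. Each is given for the 200 bases before the start, 5′ to 3′ on the transcribed strand. Capitals mark TTTGAA or CCAAT in either orientation. TOP2A lies at chr17:40417897-40418096 on the minus strand, CDC20 at chr1:43358781-43358980, ANLN at chr7:36389662-36389861 and PLK1 at chr16:23678689-23678888, these 3 on the plus strand.
TOP2A: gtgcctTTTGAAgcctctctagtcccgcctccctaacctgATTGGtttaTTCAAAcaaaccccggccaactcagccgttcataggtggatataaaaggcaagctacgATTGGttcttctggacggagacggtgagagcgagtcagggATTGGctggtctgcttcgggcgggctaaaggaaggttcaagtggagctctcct
CDC20: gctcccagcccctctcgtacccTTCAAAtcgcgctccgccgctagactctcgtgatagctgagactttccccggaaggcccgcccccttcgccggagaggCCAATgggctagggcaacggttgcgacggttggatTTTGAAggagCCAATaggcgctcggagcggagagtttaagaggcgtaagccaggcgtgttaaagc
ANLN: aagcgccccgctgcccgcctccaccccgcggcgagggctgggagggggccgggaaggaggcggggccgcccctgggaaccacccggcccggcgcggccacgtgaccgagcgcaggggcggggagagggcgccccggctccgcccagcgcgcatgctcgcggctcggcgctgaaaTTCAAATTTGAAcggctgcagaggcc
PLK1: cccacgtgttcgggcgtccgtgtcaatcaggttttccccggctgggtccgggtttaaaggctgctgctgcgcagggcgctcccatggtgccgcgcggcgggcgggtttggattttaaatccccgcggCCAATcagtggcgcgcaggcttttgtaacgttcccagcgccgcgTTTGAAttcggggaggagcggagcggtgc
In the TOP2A promoter, the CHR matches began at -194 and -151 relative to the start site, the second in reverse orientation, and CCAAT matches in reverse orientation began at -160, -93 and -53. The CDC20 promoter had CHR matches at -178 and -65 and CCAAT matches at -100 and -55. ANLN had a pair of CHR matches side by side at -26 and -20, in opposite orientations, and no CCAAT match in these bases. PLK1 had 1 CHR match at -29 and 1 CCAAT match at -73. CENPF and NUSAP1, which also changed strongly, held their CHR match after the start site, at 41 and 14, and are not printed. PTTG1, KIF20A and KIF2C, also among the largest changes, had a window with no CHR match.

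Over all windows of the mitosis genes, both strands searched, a CHR match was present in 39 of 64 (60.9%), against 15.2% of 35116 promoter windows in the RefSeq table. CCAAT was present in 67.2% of their windows against 34.6%, at least 2 CCAAT matches in 39.1% against 10.8%, and CHR together with CCAAT in 45.3% against 5.9%. Counted by gene, 37 of 51 genes (72.5%) held a CHR match in at least 1 window, against 18.2% of 27305 genes. The variant CHR letters TTCGAA were found in 6.25% of the windows against 1.45%, and the E2F letters TTTCCCGC or TTTGGCGC in 4.69% against 2.27%. Other mitotic genes held a CHR match in 32.7% of 101 windows, CCAAT in 54.5%, at least 2 CCAAT matches in 31.7% and an E2F match in 15.8%. DNA replication genes held a CHR match in 3.17% of 63 windows, CCAAT in 55.6%, at least 2 CCAAT matches in 31.7% and an E2F match in 36.5%. These shares were not tested against each other. The CHR share was 56.2% in the 16 windows of genes that passed the expression criterion below and 62.5% in the 48 windows of the other mitosis genes. A match describes these letters only, and binding was not measured.

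**Figure D1:**
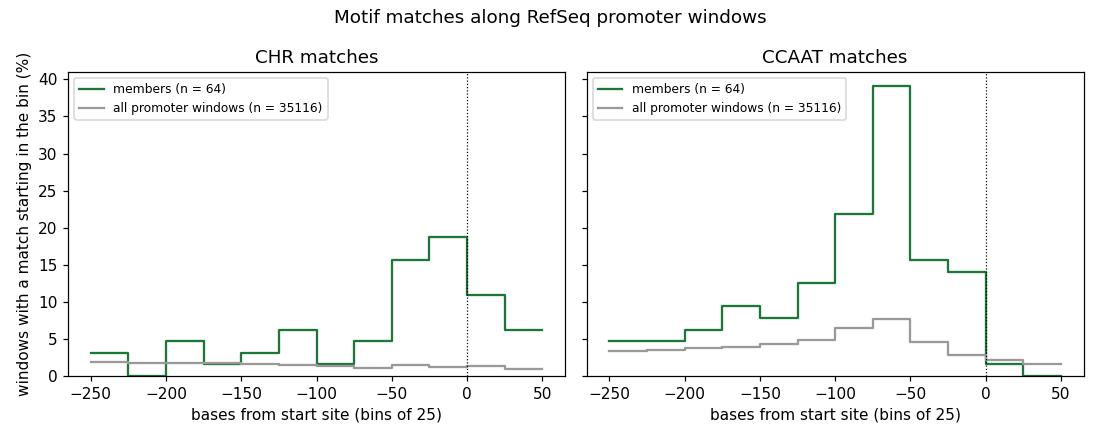
Share of promoter windows (y axis, %) with a CHR or CCAAT match that starts in each bin of 25 bases (x axis, bases from the start site), for 64 windows of mitosis genes and all 35116 windows. In the mitosis genes, CHR matches were most frequent in the 25 bases before the start site (18.8% of windows) and CCAAT matches in the bin that begins at -75 (39.1%).

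The libraries could be compared in level but not in read number, since the deposited values are FPKM, that is, fragments scaled both by exon length and by the mapped fragments of the library. Depth relative to ECsXAV replicate 1 was estimated from the most frequent FPKM ratio among single-locus genes at 0.005 to 0.1 FPKM in both libraries. This assumes that such genes most often hold equal fragment numbers. The estimate was 50.1% in ECsXAV replicate 2 and 86.9% and 79.8% in the CPC replicates. By this estimate, values under 1 FPKM are least precise in ECsXAV replicate 2. Total depth is unknown. Between 12070 and 12240 genes reached 1 FPKM in each library. The sample names have a different prefix in each group, and what the prefix marks is not given in the sources used here. Markers of cardiomyocytes were high in all 4 libraries, with a summed level of 13539 to 14772 FPKM over 10 genes.

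Mitosis genes were higher in ECsXAV cultures than in CPC cultures with few exceptions. Their summed level was 341 and 288 FPKM in ECsXAV libraries and 144 and 151 FPKM in CPC libraries. The median gene had 3.89 and 3.13 FPKM in ECsXAV libraries and 1.19 and 1.27 FPKM in CPC libraries, and none was listed at 0 in any library. At least 1 FPKM was reached by 54 and 52 of the 60 genes in the ECsXAV replicates and by 36 in each CPC replicate. In 57 of the 60 genes, both CPC libraries lay below both ECsXAV libraries, a pattern seen in 24.6% of 18772 genes with any signal, and in 0 of the 60 they lay above, a pattern seen in 21.9%. SMC2, SMC4 and CENPI overlapped between the groups. The CPC mean was a median of 37.5% of the ECsXAV mean, with a range of 22.3% (CKAP2L) to 111% (SMC2), and was under 50% in 39 genes. In these bulk libraries, fewer dividing cells and less mitotic RNA per dividing cell cannot be told apart. As the cultures were not sorted, RNA of cardiomyocytes and of other cells cannot be told apart either.

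**Figure D2:**
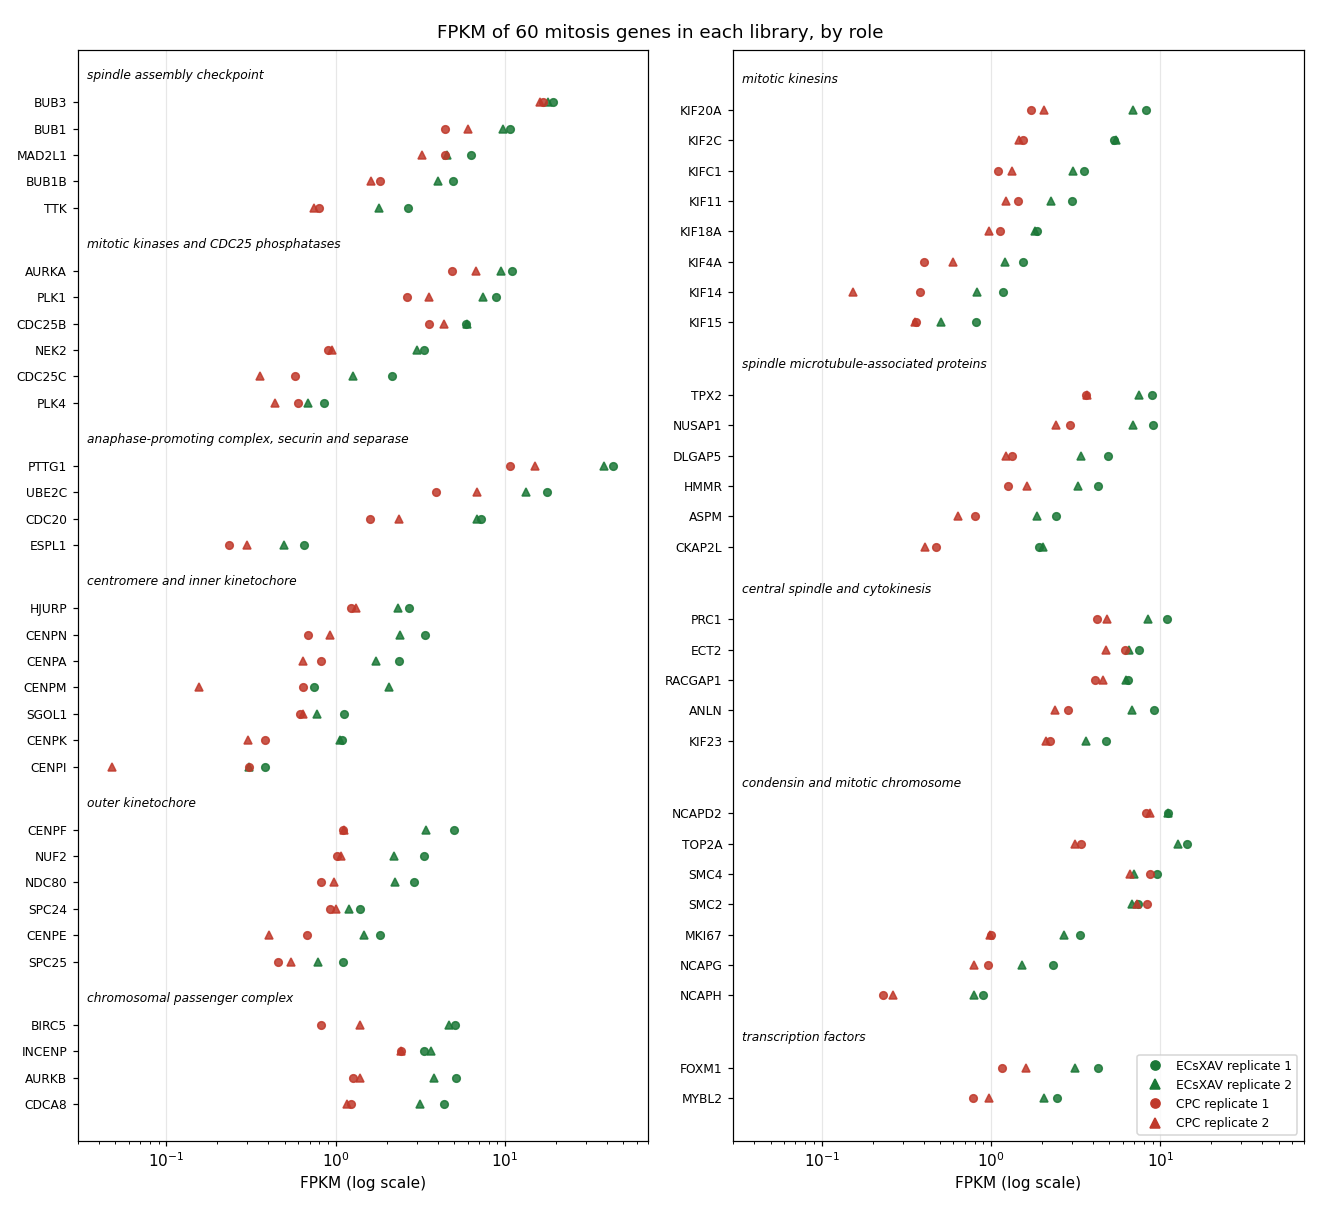
FPKM (x axis, log scale) of each of the 60 mitosis genes in each library, grouped by role and ordered by mean level. Green symbols are ECsXAV libraries and red symbols CPC libraries, circles replicate 1 and triangles replicate 2. The CPC symbols lie left of the ECsXAV symbols in 57 genes.

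The difference was tested with limma on log2(FPKM + 1) over the 12398 genes with a mean of at least 1 FPKM. It is given as CPC minus ECsXAV, so negative values are higher in ECsXAV cultures. Because 1 was added, changes at low FPKM are understated. The criterion for passing was a change of more than 2-fold in FPKM + 1 at an adjusted p under 0.05. Of the 49 mitosis genes tested, 15 passed with a higher level in ECsXAV cultures, against 1.44% of all tested genes. With a higher level in CPC cultures 0 passed, against 0.71% of all tested genes. At an unadjusted p under 0.05 from limma, 43 were higher in ECsXAV cultures and 0 in CPC cultures, against 10.4% and 7.86% of all tested genes. The median log2 fold change of the 49 was -0.91, and that of all tested genes was -0.00453. The other 11 genes had a mean under 1 FPKM and were not tested, and 13 of the 49 had a CPC mean under 1 FPKM and entered through their ECsXAV level. Among the 36 with a mean of at least 1 FPKM in each group, 12 passed as higher in ECsXAV cultures. Of 11850 genes that met the same condition, 1.05% did so. For any one gene, the smallest two-sided p that exact permutation of 2 against 2 libraries allows is 0.333, so the limma p-values lean on a variance estimate pooled over genes and measure only the spread between 2 cultures. With any 1 of the 4 libraries left out, 0 of the 49 passed (lowest adjusted p from limma 0.0634 to 0.107), while 38 to 42 had an unadjusted p under 0.05 (10.1% to 22.2% of all tested genes in the same fits) and the median stayed between -1.05 and -0.77. Without the filter on low FPKM, 0 of 60 passed (lowest adjusted p from limma 0.057), with 49 at an unadjusted p under 0.05 (17.7% of all genes in that fit). With a filter at a mean of 5 FPKM, 2 of 16 passed, and with quantile normalization 8 of 49.

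**Figure D3:**
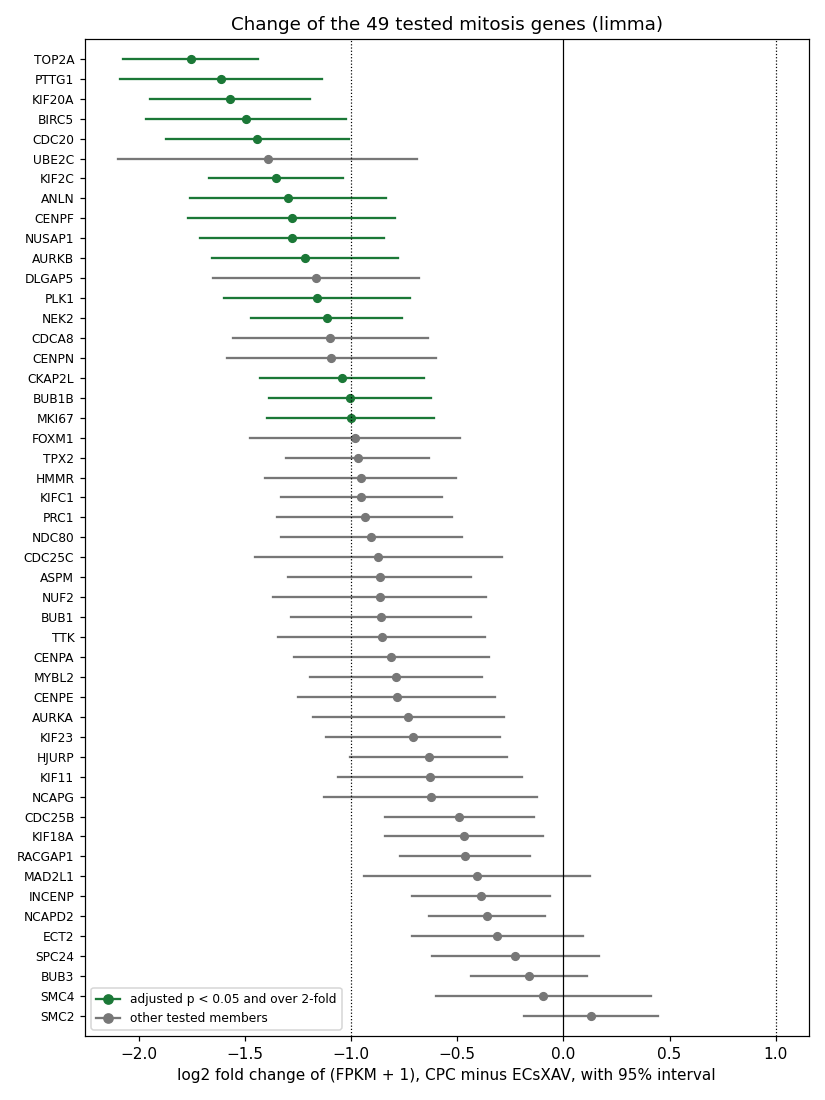
Log2 fold change of (FPKM + 1), CPC minus ECsXAV (x axis), of the 49 tested mitosis genes with 95% intervals from limma, 2 libraries per group. Green marks the 15 genes that passed, grey the others, and dotted lines mark a 2-fold change. All but SMC2 lie left of 0.

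Of the genes that pack and mark chromosomes in mitosis, 2 of 6 tested passed. TOP2A, the topoisomerase that untangles sister chromatids, had 14.3 and 12.6 FPKM in ECsXAV libraries and 3.41 and 3.13 FPKM in CPC libraries (chr17:38544777-38574148, GRCh37, as for all gene positions). This was the largest change among the 49 genes, a log2 fold change of -1.76 (standard error, s.e., 0.12, with a limma adjusted p of 0.0110). MKI67, which encodes the proliferation marker Ki-67 that coats mitotic chromosomes, had 3.33 and 2.69 FPKM in ECsXAV libraries and 1.004 and 0.99 FPKM in CPC libraries (chr10:129894923-129924687). The groups were far apart relative to their spread, with a CPC mean of 33.1% of the ECsXAV mean. With 1 added to each FPKM, the log2 fold change of -1.003 only just passed the 2-fold limit (s.e. 0.15, limma adjusted p = 0.0483). Condensin, the ring complex that compacts the chromosomes, had subunits at very different levels. NCAPD2, which had the highest mean FPKM of this role over the 4 libraries, though below TOP2A in ECsXAV libraries, had 11.1 FPKM in both ECsXAV libraries and 8.20 and 8.70 FPKM in CPC libraries, and its log2 fold change of -0.36 did not pass (limma adjusted p = 0.172). SMC2 was the single gene with a higher mean in CPC cultures. It had 7.34 and 6.76 FPKM in ECsXAV libraries and 8.31 and 7.32 FPKM in CPC libraries. Its groups overlapped, and the log2 fold change of 0.13 had a 95% interval of -0.19 to 0.45. SMC4, its partner in the condensin ring, likewise overlapped, with 9.50 and 6.997 against 8.63 and 6.63 FPKM. NCAPH, the condensin I kleisin, was low, with 0.895 and 0.798 FPKM in ECsXAV libraries and 0.230 and 0.264 FPKM in CPC libraries, and its CPC mean was 29.2% of the ECsXAV mean. NCAPG, of the same complex, had a CPC mean of 45.7% of the ECsXAV mean and did not pass.

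Genes that recognise the centromere were low, and of the 3 tested 0 passed. Each of the 3 had an unadjusted p under 0.05 from limma and was higher in ECsXAV cultures. HJURP, the chaperone that loads the centromeric histone CENPA, had 2.71 and 2.34 FPKM in ECsXAV libraries and 1.22 and 1.31 FPKM in CPC libraries. CENPN, which binds CENPA nucleosomes, had 3.38 and 2.39 FPKM in ECsXAV libraries and 0.688 and 0.928 FPKM in CPC libraries. The groups did not overlap in either gene, and the log2 fold changes were -0.64 and -1.09 (adjusted p = 0.104 and 0.0632, limma). CENPA itself had a CPC mean of 35.6% of the ECsXAV mean. CENPK, of the constitutive centromere network, had 1.09 and 1.06 against 0.383 and 0.303 FPKM. CENPM, of the same network, had 0.744 and 2.07 FPKM in ECsXAV libraries and 0.643 and 0.155 FPKM in CPC libraries, and its ECsXAV replicates differed by more than its group means did. CENPI was at 0.383 and 0.305 FPKM in ECsXAV libraries and at 0.308 and 0.048 FPKM in CPC libraries, and the groups overlapped. SGOL1 (SGO1 in current annotation), which guards centromeric cohesion, had 1.12 and 0.775 against 0.612 and 0.639 FPKM.

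In the outer kinetochore, which grips the microtubule, 1 of 5 tested genes passed. CENPF had 4.96 and 3.40 FPKM in ECsXAV libraries and 1.10 and 1.12 FPKM in CPC libraries (chr1:214776528-214837917), a log2 fold change of -1.28 (s.e. 0.19, limma adjusted p = 0.0451). It was both the most abundant and the most changed gene of this role. CENPE, a kinesin that carries chromosomes to the spindle equator, had a CPC mean of 32.7% of the ECsXAV mean and did not pass. The NDC80 complex is built of NDC80, NUF2, SPC24 and SPC25. NDC80 and NUF2, which form its microtubule-binding end, had CPC means of 35.0% and 37.7% of the ECsXAV mean, and neither passed. SPC24, of the end that faces the centromere, had one of 74.1%, and its log2 fold change of -0.23 had a 95% interval of -0.62 to 0.17. SPC25, its partner, had 1.11 and 0.788 FPKM in ECsXAV libraries and 0.455 and 0.544 FPKM in CPC libraries.

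The spindle assembly checkpoint holds anaphase until all kinetochores are attached. BUB1B, which encodes the checkpoint kinase-like protein BubR1, passed with 4.91 and 4.02 FPKM in ECsXAV libraries and 1.82 and 1.61 FPKM in CPC libraries (chr15:40453224-40513324). Its CPC mean was 38.4% of the ECsXAV mean. With 1 added to each FPKM, its log2 fold change of -1.005 (s.e. 0.15, limma adjusted p = 0.0451) lay at the 2-fold limit. BUB3, the most abundant checkpoint gene, had 19.1 and 17.8 FPKM in ECsXAV libraries and 16.7 and 16.03 FPKM in CPC libraries. The groups did not overlap, but the change was small, with a log2 fold change of -0.16 and a 95% interval of -0.44 to 0.11. BUB1, TTK and MAD2L1 had CPC means of 51.2%, 34.5% and 70.8% of the ECsXAV mean and did not pass.

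The genes of anaphase onset had the highest summed level of any role in ECsXAV libraries, at 69.1 and 58.8 FPKM, and summed to 16.4 and 24.5 FPKM in CPC libraries. PTTG1, which encodes securin, the inhibitor of separase, had 43.5 and 38.3 FPKM in ECsXAV libraries and 10.7 and 15.0 FPKM in CPC libraries (chr5:159848862-159855746). It had the highest mean FPKM of the 60 genes over the 4 libraries, though BUB3 was higher in both CPC libraries, and the change next in size to TOP2A, a log2 fold change of -1.61 (s.e. 0.18, limma adjusted p = 0.0292). CDC20, the activator of the anaphase-promoting complex (APC/C), had 7.21 and 6.80 FPKM in ECsXAV libraries and 1.59 and 2.35 FPKM in CPC libraries (chr1:43824652-43828874). Both ECsXAV libraries were well above the CPC pair, and the log2 fold change was -1.44 (s.e. 0.17, limma adjusted p = 0.0301). UBE2C, the ubiquitin-conjugating enzyme of the APC/C, had a log2 fold change of -1.39 and did not pass (limma adjusted p = 0.0802), with CPC replicates at 3.91 and 6.85 FPKM. ESPL1, which encodes separase itself, had 0.648 and 0.491 FPKM in ECsXAV libraries and 0.235 and 0.300 FPKM in CPC libraries.

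The mitotic kinases PLK1 and NEK2 passed. PLK1, which drives mitotic entry and centrosome maturation, had 8.82 and 7.42 FPKM in ECsXAV libraries and 2.62 and 3.57 FPKM in CPC libraries (chr16:23688977-23701688), a log2 fold change of -1.16 (s.e. 0.17, limma adjusted p = 0.0451). NEK2, a centrosome-separating kinase, had 3.31 and 3.01 FPKM in ECsXAV libraries and 0.894 and 0.944 FPKM in CPC libraries (chr1:211831999-211848972), a log2 fold change of -1.12 (s.e. 0.14, limma adjusted p = 0.0341). AURKA, the centrosomal Aurora kinase and the most abundant of this role, had 10.9 and 9.42 against 4.87 and 6.69 FPKM. Its groups did not overlap, but its log2 fold change of -0.73 did not pass (limma adjusted p = 0.119). PLK4, which licenses centriole duplication, was low at 0.855 and 0.689 FPKM in ECsXAV libraries and 0.596 and 0.438 FPKM in CPC libraries. CDC25B and CDC25C, the phosphatases that activate CDK1, had CPC means of 66.6% and 27.1% of the ECsXAV mean and did not pass.

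The chromosomal passenger complex corrects faulty attachments and later marks the cleavage plane. BIRC5, which encodes survivin, had 5.08 and 4.68 FPKM in ECsXAV libraries and 0.814 and 1.40 FPKM in CPC libraries (chr17:76210267-76221717), and its log2 fold change was -1.49 (s.e. 0.18, limma adjusted p = 0.0331). AURKB, the kinase of the complex, had 5.09 and 3.79 FPKM in ECsXAV libraries and 1.26 and 1.38 FPKM in CPC libraries (chr17:8108051-8113918), and its log2 fold change was -1.22 (s.e. 0.17, limma adjusted p = 0.0415). In both, the groups were well separated, with CPC means of 22.7% and 29.8% of the ECsXAV mean. CDCA8, which encodes borealin, was over the fold limit at -1.10 with an adjusted p of 0.0549 from limma. The scaffold INCENP had a CPC mean of 69.6% of the ECsXAV mean and did not pass.

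Of the mitotic kinesins, motors that move chromosomes and slide spindle microtubules, 2 of 5 tested passed. KIF20A, a kinesin of the central spindle, had 8.25 and 6.90 FPKM in ECsXAV libraries and 1.72 and 2.04 FPKM in CPC libraries (chr5:137514408-137523412), a log2 fold change of -1.57 (s.e. 0.15, limma adjusted p = 0.0192). KIF2C, the microtubule-depolymerising kinesin MCAK, had 5.35 and 5.45 FPKM in ECsXAV libraries and 1.55 and 1.46 FPKM in CPC libraries (chr1:45205490-45233439), a log2 fold change of -1.35 (s.e. 0.12, limma adjusted p = 0.0185). The replicates of KIF2C lay close together in both groups. KIFC1 had an adjusted p of 0.0497 from limma and a log2 fold change of -0.95, under the 2-fold limit. It has 3 loci in the table, and the other 2 are listed at 0 in every library. KIF11 and KIF18A had CPC means of 50.9% and 57.2% of the ECsXAV mean and did not pass. The 3 other kinesins were too low to test, and in each the groups did not overlap. KIF4A, which works on chromosome arms, had 1.55 and 1.22 against 0.399 and 0.593 FPKM. KIF14, a kinesin of the midbody, had 1.17 and 0.828 against 0.382 and 0.152 FPKM, and KIF15, a spindle kinesin, had 0.819 and 0.506 against 0.359 and 0.354 FPKM.

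Among spindle microtubule-associated proteins, all 6 genes were tested and 2 passed. NUSAP1, which bundles spindle microtubules, had 8.99 and 6.92 FPKM in ECsXAV libraries and 2.93 and 2.42 FPKM in CPC libraries (chr15:41612992-41673248), a log2 fold change of -1.28 (s.e. 0.17, limma adjusted p = 0.0387). CKAP2L, which localises to the spindle, had 1.91 and 2.03 FPKM in ECsXAV libraries and 0.474 and 0.406 FPKM in CPC libraries (chr2:113493926-113522241). Its CPC mean, at 22.3% of the ECsXAV mean, was the lowest of the set, while the added 1 brought its log2 fold change to -1.04 (s.e. 0.15, limma adjusted p = 0.0440). TPX2, the activator of Aurora A on the spindle and the most abundant of this role, had 8.87 and 7.45 against 3.62 and 3.70 FPKM. It had an adjusted p of 0.0404 from limma, and its CPC mean was 44.9% of the ECsXAV mean. With 1 added to each FPKM, its log2 fold change of -0.97 fell short of the 2-fold limit. DLGAP5, HMMR and ASPM had CPC means of 30.6% to 38.5% of the ECsXAV mean and did not pass.

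Cytokinesis genes build the central spindle and the contractile ring. ANLN, the ring scaffold anillin, had 9.20 and 6.78 FPKM in ECsXAV libraries and 2.86 and 2.40 FPKM in CPC libraries (chr7:36429430-36493400), a log2 fold change of -1.30 (s.e. 0.18, limma adjusted p = 0.0413). It was the 1 gene of this role that passed. PRC1, the microtubule bundler of the central spindle with the highest mean FPKM of the role over the 4 libraries, though below ECT2 in the CPC mean, had 10.9 and 8.44 FPKM in ECsXAV libraries and 4.22 and 4.86 FPKM in CPC libraries, a log2 fold change of -0.94 (limma adjusted p = 0.0605). KIF23 and RACGAP1, which together form centralspindlin, had CPC means of 51.4% and 68.2% of the ECsXAV mean. ECT2, the exchange factor that activates RhoA at the cleavage plane, had one of 78.2%, and its log2 fold change of -0.31 had a 95% interval of -0.71 to 0.09.

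FOXM1 and MYBL2 (B-Myb) are the transcription factors that switch on the late cell cycle genes. FOXM1 had 4.29 and 3.14 FPKM in ECsXAV libraries and 1.16 and 1.61 FPKM in CPC libraries. The groups did not overlap, and the log2 fold change of -0.98 did not pass (limma adjusted p = 0.0795). MYBL2 had a CPC mean of 39.1% of the ECsXAV mean and did not pass either.

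The entries that the authors estimated per transcript differed between the groups in a few genes. Of the 32 mitosis genes with several transcript entries, 14 had the same leading entry in all 4 libraries, 13 had leading entries that differed within a group, and 5 (CDC25C, CENPA, FOXM1, NCAPG and PRC1) had one leading entry in both ECsXAV libraries and another in both CPC libraries. In FOXM1, the entry NM_021953 had 3.14 and 3.11 FPKM in ECsXAV libraries and estimates of effectively none in both CPC libraries (8.2e-15 FPKM at most), where NM_001243089 led with 0.919 and 1.36 FPKM. In CENPA, the entry NM_001809 had 2.23 and 1.12 FPKM in ECsXAV libraries and 9.4e-05 and 0.0001 FPKM in CPC libraries. Some leads were narrow. In CDC25C, the entry NM_022809 led in ECsXAV libraries with 52.4% and 58.0% of the summed FPKM of its entries. In NCAPG, the entry NR_073124 led in CPC replicate 1 with 51.4%. Splits between entries of low genes are uncertain estimates, and these were not tested. The share of all genes with such a pattern was not counted.

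Within ECsXAV, replicate 1 was above replicate 2 in 55 of the 60 genes, with a median difference of 0.22 on the log2(FPKM + 1) scale. Of the 12398 tested genes, 45.7% were higher in replicate 1. Within CPC, 29 of the 60 were higher in replicate 1, close to the 50.7% of the tested genes. The 60 include the 11 mitosis genes that were not tested.

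Other genes of the pathway were taken from 4 lists. Of 84 tested genes among other mitotic genes, 9 passed and 27 had an unadjusted p under 0.05 from limma, each of these higher in ECsXAV cultures. Of all tested genes, 18.2% had such a p in either direction. Among the 96 genes found of this list, both CPC libraries lay below both ECsXAV libraries in 52 and above in 12. These patterns were seen in 24.6% and 21.9% of genes with any signal. The median log2 fold change of the 84 was -0.22. CDK1, the kinase that triggers mitosis, had 12.4 and 10.3 FPKM in ECsXAV libraries and 3.81 and 3.49 FPKM in CPC libraries, a log2 fold change of -1.41 (limma adjusted p = 0.0208). Its partners CCNB1 and CCNB2, the B-type cyclins, had log2 fold changes of -1.07 and -1.34 (adjusted p = 0.0404 and 0.0286, limma). CCNA2, which encodes cyclin A2, had 9.98 and 6.91 FPKM in ECsXAV libraries and 2.75 and 3.18 FPKM in CPC libraries and missed the threshold (log2 fold change -1.23, limma adjusted p = 0.0523). The largest change of the list was in PBK, a mitotic kinase, at -1.45. Of 13 tested APC/C subunits and regulators, the ligase that CDC20 activates, 0 passed (2 at an unadjusted p under 0.05 from limma) and the median was 0.00244. Of 43 tested DNA replication genes, the thymidine kinase TK1 passed at -1.05 (limma adjusted p = 0.0389), close to the 2-fold limit. It had 2.66 and 2.72 FPKM in ECsXAV libraries and 0.821 and 0.731 FPKM in CPC libraries. TK1 thus entered the test through its ECsXAV level. Of the 43, 5 had an unadjusted p under 0.05 from limma, and the median of the 43 was -0.12. Among the 59 genes found of this list, both CPC libraries lay below both ECsXAV libraries in 32 and above in 8. Those of the 59 with a mean under 1 FPKM were not tested. Among 15 tested DREAM, MuvB, RB and E2F regulators, 0 passed (2 at an unadjusted p under 0.05 from limma) and the median was -0.00321. In the 14 APC/C genes found, both CPC libraries lay below both ECsXAV libraries in 3 and above in 4. For the 18 DREAM, MuvB, RB and E2F regulators found, the counts were 4 and 2. The differences between lists were not tested.

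**Figure D4:**
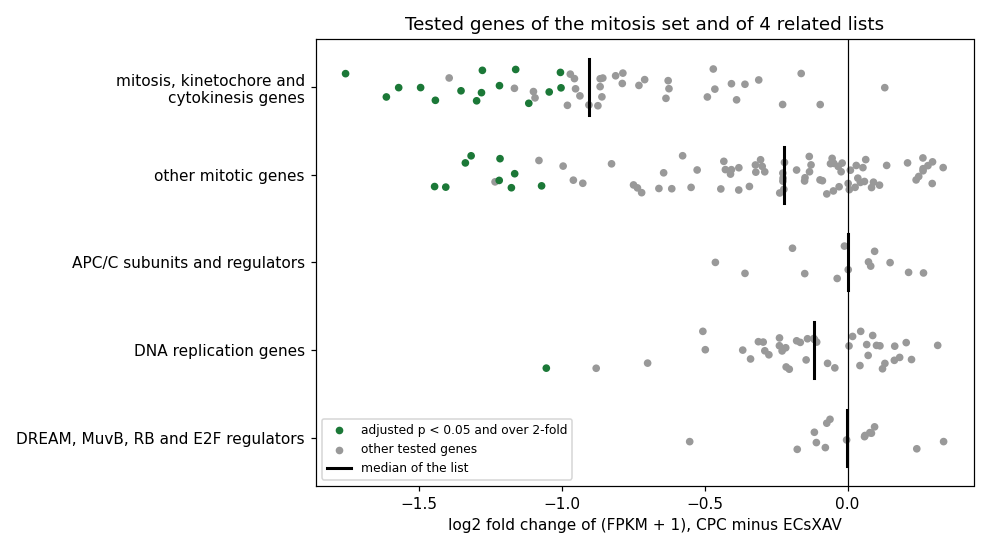
Log2 fold change of (FPKM + 1), CPC minus ECsXAV (x axis), of each tested gene of the mitosis set and of 4 related lists (y axis, vertical jitter has no meaning). Green marks genes that passed, grey the others, and the black bar the median of each list, which is -0.91 for the mitosis set and -0.22 for other mitotic genes.

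Markers of other cells also differed between the unsorted cultures. Of all tested genes, 1.44% passed as higher in ECsXAV and 0.71% as higher in CPC cultures, and the counts below were not tested against these shares. The 10 cardiomyocyte markers summed to 14772 and 14336 FPKM in ECsXAV libraries and 13539 and 14227 FPKM in CPC libraries. MYH6 was higher in CPC and MYBPC3 in ECsXAV cultures. Fibroblast and stromal markers summed to 192 and 228 FPKM in ECsXAV libraries and 107.9 and 105.9 FPKM in CPC libraries, and 3 of 6 tested (COL1A1, COL3A1 and LUM) passed as higher in ECsXAV, while PDGFRA and POSTN had log2 fold changes of 0.19 and 0.15 and did not pass, and DCN and TCF21 were at 0 in a library. Smooth muscle markers summed to 337 and 303 against 177 and 195 FPKM, and TAGLN passed of 5 tested, higher in ECsXAV, while ACTA2 had a log2 fold change of 0.16 and did not pass, and MYH11 was at 0.0844 and 0.154 against 0.351 and 0.433 FPKM. Hepatic and endoderm markers summed to 42.7 and 35.1 against 16.6 and 18.8 FPKM. AFP, APOA2 and TTR passed of 4 tested, as higher in ECsXAV, with APOA2 and TTR at 0 in CPC replicate 1. All of these were under 1 FPKM in both CPC libraries and entered the test through their ECsXAV level. The same holds for LUM above and TUBB3 below. APOA1, the other hepatic gene tested, had 20.6 and 17.9 against 15.9 and 17.8 FPKM and made up most of the CPC sums. Its log2 fold change of -0.18 did not pass. FOXA2 and HNF4A were also at 0 in a library. Endothelial markers, the cells of origin of ECsXAV, summed to 28.9 and 30.5 against 27.4 and 25.1 FPKM, mostly from KDR and EGFL7. In limma, 0 of 4 tested passed or had an unadjusted p under 0.05. PECAM1, TEK, TIE1, CD34, ROBO4, CLDN5 and ERG were under 1 FPKM in all libraries, with CLDN5 at 0 in a library. In 6 of the 12 endothelial markers both CPC libraries lay below both ECsXAV libraries, and in 1 above, against 24.6% and 21.9% of genes with any signal. Below and above, the counts were 8 and 1 of 10 fibroblast and stromal markers and 2 and 1 of 6 smooth muscle markers. They were 8 and 0 of 9 hepatic and endoderm, 3 and 0 of 5 epithelial, and 4 and 2 of 10 cardiomyocyte markers. They were 2 and 1 of 6 pluripotent, 2 and 0 of 6 blood, 0 and 1 of 7 skeletal myogenic and 2 and 1 of 5 neural markers. Epithelial markers summed to 183 and 388 against 172 and 131 FPKM, with KRT8 and KRT18 at 0 in a library, and 0 of 4 tested passed in limma (2 at an unadjusted p under 0.05). The remaining lists were low, with sums of 7.09 and 3.82 against 2.15 and 1.76 FPKM for pluripotent (POU5F1, NANOG and SOX2 at 0 in a library), 4.02 and 6.38 against 1.61 and 0.996 FPKM for blood (PTPRC, GATA1, SPI1 and HBZ at 0 in a library), 1.21 and 2.19 against 3.03 and 2.65 FPKM for skeletal myogenic (MYOD1, MYF5, MYF6 and PAX7 at 0 in a library) and 4.42 and 4.35 against 0.803 and 0.916 FPKM for neural markers (TUBB3 passed as higher in ECsXAV, and SOX1, NEUROD1 and STMN2 were at 0 in a library). The part of these cells in the mitosis difference was not tested.

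**Figure D5:**
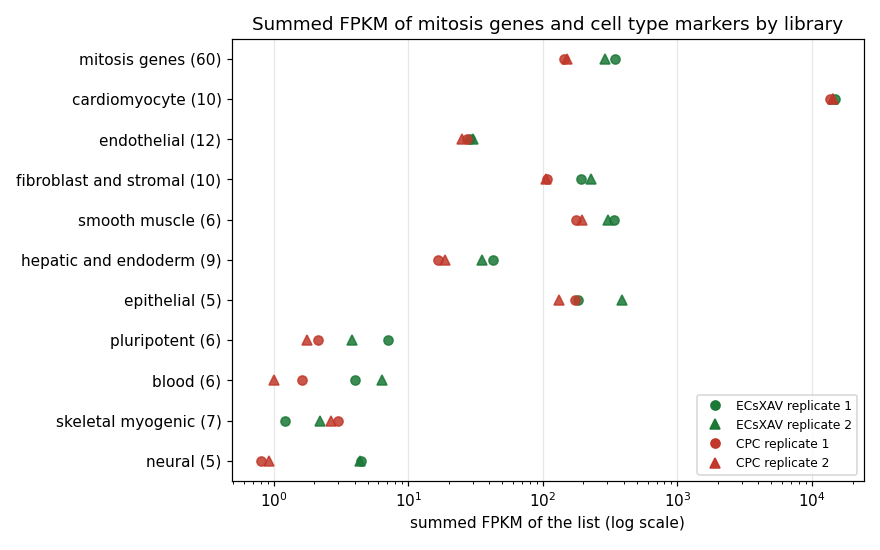
Summed FPKM (x axis, log scale) of the 60 mitosis genes and of each cell type marker list (y axis, number of genes in parentheses) in each library, with green for ECsXAV, red for CPC, circles for replicate 1 and triangles for replicate 2. Among others, the sums of the mitosis, fibroblast, smooth muscle and hepatic lists were higher in both ECsXAV libraries, and cardiomyocyte sums lay between 13539 and 14772 FPKM.

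The 60 genes lie on 20 chromosomes, with at most 8 on 1 of them (chromosome 1). Exons of 18 of the genes share bases with exons of another protein-coding gene in GENCODE, as NUSAP1 does with OIP5 (9.76% of its exonic bases). The largest shares were with genes known there by identifier only, 81.4% in NUSAP1 and 57.6% in PRC1. Strand handling in the FPKM is not given in the sources used here, so reads of such pairs may not be fully separated.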

How the data were processed

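Poly-A RNA-seq of 4 unsorted day 14 cultures was used, with groups and replicate numbers from the sample labels and doses from the study's methods. The deposited values are FPKM, which the authors computed with Cufflinks version 2.1.1 and UCSC annotation on hg19; the submitters' notes also name TopHat 1.3.3. The handling of multiply aligned reads for FPKM is not given in the sources used here. Where a symbol had several loci, its entry of highest mean FPKM was taken. Genes with a mean of at least 1 FPKM were tested on log2(FPKM + 1) with limma 3.58.1 (intensity trend, Benjamini-Hochberg adjustment over 12398 genes) in R 4.3.3. The step was also run on simulated data with changes larger than any of the mitosis genes. That run does not bear on genes near the 2-fold limit. Python 3.11.15 with NumPy 2.4.6, pandas 2.3.3 and matplotlib 3.10.9 served for tables and plots.

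The genes, roles, lists and tests were chosen with earlier results of these data known. Values per library are given for genes that passed, the most abundant and most changed gene of each role, genes higher in CPC and genes under 1 FPKM, and others named with values were chosen after these were seen. From the other lists, the CDK1 and cyclin genes, the most changed genes that passed and genes that passed with a CPC mean under 1 FPKM are named. One marker gene is not reported here and enters no marker sum. Gene positions were taken from GENCODE release 44 on GRCh37 (hg19) and promoters from RefSeq on GRCh38.p14. Alternatives were median-of-ratios scaling, quantile normalization, a pseudocount of 0.1, a mean of at least 5 FPKM or no filter, a fit with no trend, a replicate block, summed loci, the isoform table, leaving out short RNA genes, and leaving out each library.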

Additional observations from a re-analysis of the deposited data

How the results depend on the processing

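The 15 mitosis genes and 266 genes in all that passed became 0 and 20 without the filter, 2 and 152 with a mean of at least 5 FPKM (16 mitosis genes tested) and 8 mitosis genes with quantile normalization. With the replicate number as a block, 5 mitosis genes (ANLN, KIF20A, KIF2C, NUSAP1 and TOP2A, all among the 15) and 176 genes in all passed. The differences between replicates 1 and 2 of the groups had a rank correlation of 0.356 across genes, and the labels do not say that equal numbers mark a shared day or batch. With each library left out in turn, 0 mitosis genes and 50 to 118 genes in all passed, where the lone library is assumed to vary like the other group; the cause was not tested. Short RNA genes and genes at 0 beside 5 FPKM were left out in another fit, a choice made with earlier results known. There 19 mitosis genes passed with and without the block, the 15 among them, and 341 genes in all without it. Of the 49 mitosis genes, 37 then had an adjusted p under 0.05 from limma (40 with the block), against 17 in the main fit. Adjusted p-values near the threshold thus depend on which genes share the fit. Counted among genes with a mean of at least 1 FPKM in each group, added after seeing the data, the calls were 12 and 183. A pseudocount of 0.1 moved the median log2 fold change from -0.91 to -1.37, as it understates low genes less. SMC4, at -0.10, turned to 0.10 without ECsXAV replicate 1 and to 0.07 without CPC replicate 2 (-0.29 to 0.10 over the 4 fits). In 47 or 48 of the 49 tested genes the direction stayed higher in ECsXAV in every setting with 49 genes. Depth limits genes under 1 FPKM most.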
